A study of Homo sapiens with 27 samples.

Results

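Histone lysine methyltransferase and demethylase genes were followed across 5 deposited lists of RNA modification peaks from HepAD38, a human hepatoma-derived cell line that carries a hepatitis B virus genome. The genes were chosen by name alone, as those the antibody lists give by themselves for a peak and whose symbols begin with KMT, KDM or SETD and a digit, plus ASH1L, NSD1, NSD2, NSD3, EZH1, EZH2, EHMT1, EHMT2, SUV39H1, SUV39H2, SETDB1, SETDB2 and DOT1L, with Y-linked genes left out. This gave 47 genes of the 11528 named alone in an antibody list: 44 protein-coding genes, which were 28 methyltransferase and 16 demethylase genes, and 3 non-coding genes that carry a member's symbol (KDM4A-AS1, KDM7A-DT and KMT2E-AS1). RefSeq holds 49 protein-coding genes with such a name outside the Y chromosome. The 5 without a listed peak of their own were EHMT2, KDM4D, KDM4E, KDM4F and SETDB2.

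All 27 libraries came from wild-type cells of this line without any other condition in the labels, in 9 groups of 3. Antibodies to 4 modified nucleosides each gave an immunoprecipitated (IP) group and an input group. They were m7G (7-methylguanosine), m1A (N1-methyladenosine), m5C (5-methylcytidine) and ac4C (N4-acetylcytidine). Pseudouridine (Psi) had 1 group. The labels give no clone, passage or culture for the libraries, nor whether viral expression was induced. The series states an interest in RNA modifications and evolution, and each antibody list compares the IP with its input.

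Methylation of histone lysines is written by SET-domain enzymes and by DOT1L, and is removed by the flavin-dependent KDM1 enzymes and the Jumonji-domain KDM2 to KDM8 enzymes. Methylated H3K4 marks promoters and enhancers, methylated H3K36 and H3K79 mark transcribed bodies, and methylated H3K9, H3K27 and H4K20 mark silent or compacted chromatin. In infected hepatocytes the viral minichromosome is itself packed on histones, and some of these enzymes are known to act on it. Among the RNA modifications, m7G is also the nucleotide of the mRNA cap, m1A and m5C occur inside mRNAs and tRNAs, ac4C is made by NAT10, and Psi is an isomer of uridine.

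For every peak of an antibody list there is 1 value for the pooled IP libraries and 1 for the pooled inputs, in RPM (reads scaled to library size), so no spread between libraries could be computed. Ratios of IP over input RPM are given with exact (Clopper-Pearson) 95% intervals, which cover counting error only. Pooled depth was lowest in the ac4C IP, at 17135274 reads, and highest in the m1A input, at 364905848 reads. The 4 input pools served as a yardstick. At peaks listed with identical coordinates in a pair of lists, the log2 ratio of the 2 inputs had an SD of 0.74 between m5C and m7G (480 peaks) and of 1.49 between m1A and m5C (493 peaks), that is 1.67-fold and 2.81-fold. A peak was called higher at a ratio of 2 or more and lower at 0.5 or less. The authors' deposited table gives a log2 enrichment above 0 for every member peak, although the RPM ratio was below 1 at 75 m1A, 96 m5C and 29 m7G member peaks. The hepatocyte markers ALB, APOA1, APOA2, APOB, AFP and TTR all had m1A, m5C and m7G peaks, and 10 of 11 markers of that list did.

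Most of these genes had peaks of several modifications. By number of peaks, the H3K4 and H3K36 methyltransferase groups, of 8 and 5 genes, had the most. An m1A peak was listed for 39 of the 44 protein-coding members (88.6%, against 79% of the 10298 protein-coding genes in any antibody list). An m5C peak was listed for 35 (79.5%, against 75.4%) and an m7G peak for 36 (81.8%, against 68.8%). An ac4C peak was listed for 28 (63.6%, against 42.4%). A Psi peak, which did not enter the choice of genes, lay in 29 (65.9%, against 50%). A peak in at least 1 antibody list was fixed by the choice of genes, for members and background alike, and a gene without a listed peak was not shown to lack the modification.

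Peaks in all 5 lists were found for 20 of the 44 protein-coding members (45.5%), compared with 1722 of 10298 genes (16.7%). These were KMT2A, KMT2B, KMT2C and KMT2E of the H3K4 methyltransferase group, and the H3K36 methyltransferases ASH1L, NSD2, NSD3 and SETD2. KMT2E was counted in the H3K4 group throughout, although no catalytic activity is known for it. The others were DOT1L, EHMT1, KMT5A, SETD3, SETD5 and SETD6, and the demethylases KDM2A, KDM3B, KDM4B, KDM5A, KDM5C and KDM7A. A further 10 had peaks in 4 lists: EZH2, KDM1A, KDM2B, KDM3A, KDM4A, KDM5B, KMT2D, KMT5B, SETD1A and SETD1B. KDM4C, KDM6B, SETDB1 and SUV39H2 had peaks in 3 lists, and KDM1B, KDM6A, KMT5C, SETD4 and SETD7 in 2. EZH1, KDM8, SETD9 and SUV39H1 were in the m1A list alone and NSD1 in the ac4C list alone.

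**Figure D1:**
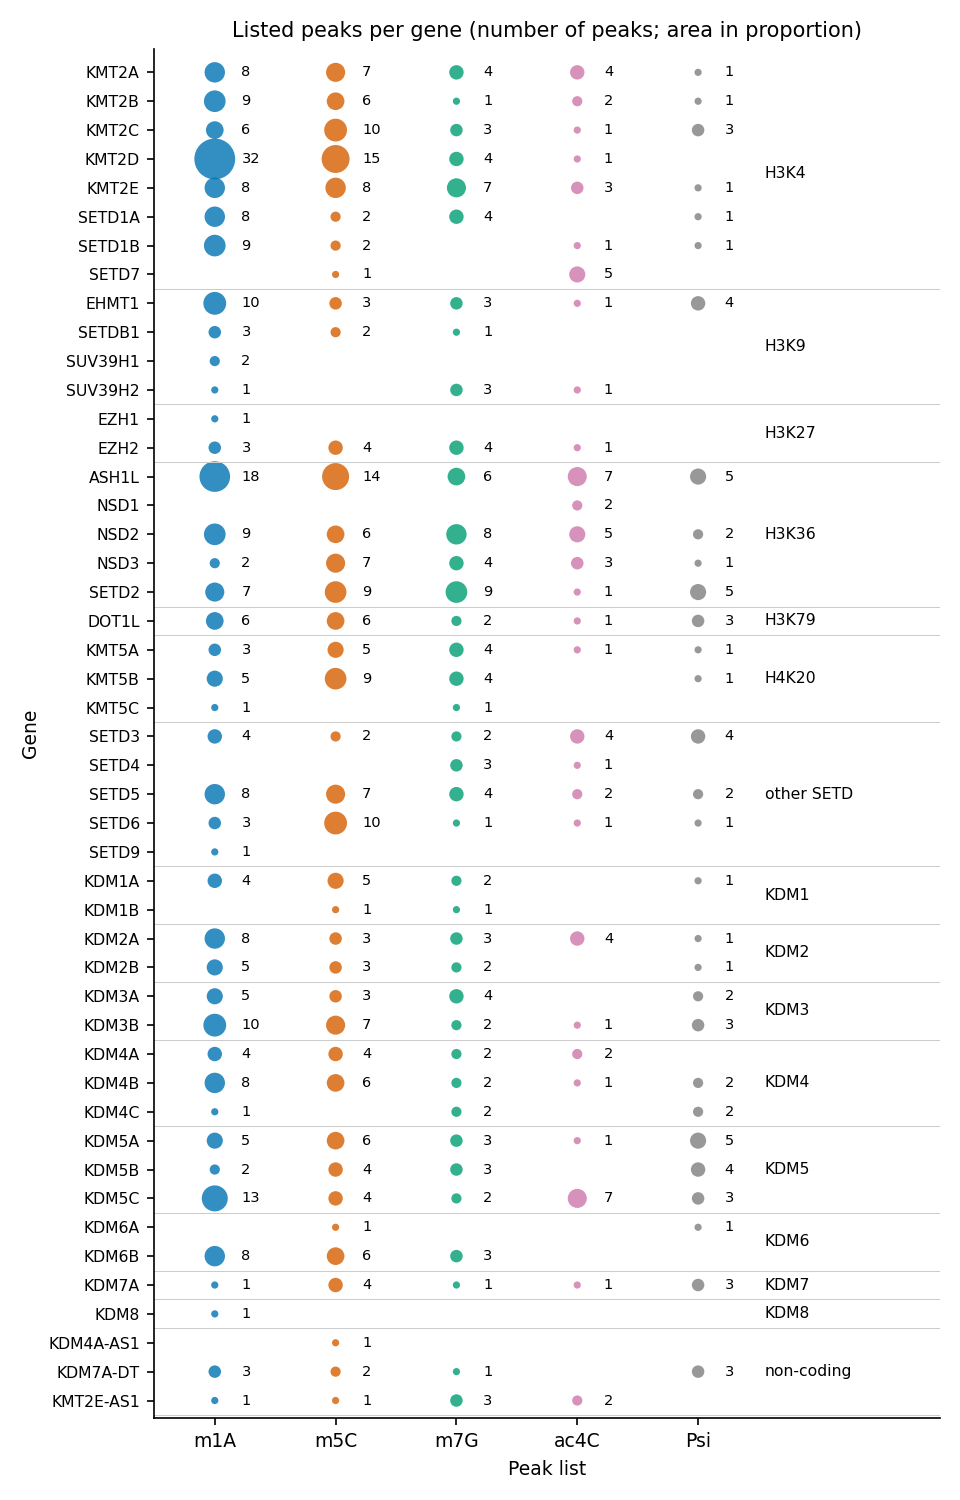
Number of listed peaks of each of the 47 genes (rows, grouped by role) in the 5 lists (columns); the number stands beside each point and the point's area is in proportion to it. KMT2D has the most m1A peaks, 32, followed by ASH1L with 18 and KDM5C with 13, whereas EZH1, KDM8 and SETD9 have 1 peak in all.

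Members also had more peaks per gene. The median member with a peak had 5 m1A, 4.5 m5C and 3 m7G peaks, compared with 3, 2 and 2 over all protein-coding genes with a peak, and 1 ac4C and 2 Psi peaks, as in all genes. KMT2D, which monomethylates H3K4 at enhancers, had the most peaks over the 5 lists, 52, of which 32 were m1A and 15 m5C peaks. ASH1L, which dimethylates H3K36, followed with 50. Across the 44 genes the number of Psi peaks and the length of the gene span had a Spearman rho of 0.597, and the total number of peaks and span one of 0.362. This is a description over 44 genes that share the same libraries.

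The m7G peaks of these genes were most enriched at transcript starts. A listed m7G peak covered part of the first 50 bases of an annotated RefSeq start in 16 of 118 cases (13.6%, against 27.3% of peaks in protein-coding genes), in 15 genes. Genes without a RefSeq promoter entry could not be scored, among members and all genes alike, and their peaks counted as not covering. Of these 16 peaks, 10 were higher in the IP (83.4% of all start-covering peaks were), with ratios from 1.21 to 8.28 and a median of 3.51, compared with 3.64 over all genes. Of the 102 m7G peaks elsewhere in the members, 12 were higher (19.1% of such peaks in all genes), with a median ratio of 1.15 and none above 3.88. The windows below span 60 bases before and 30 after the annotated start of 6 members, shown because a listed m7G peak of each begins at that base. SETD3, whose peak at a ratio of 1.96 does so too, is not shown. They are RefSeq sequences of GRCh38.p14, 5′ to 3′, with the bases inside the listed peak in capitals. The first 5 had ratios above 2, and EHMT1 had the lowest ratio of the 16.
KMT5C: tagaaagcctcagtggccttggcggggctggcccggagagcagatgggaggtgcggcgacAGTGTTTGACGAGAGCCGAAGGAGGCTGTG
ASH1L: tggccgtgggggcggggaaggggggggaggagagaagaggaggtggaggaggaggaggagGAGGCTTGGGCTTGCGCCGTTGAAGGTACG
KDM3A: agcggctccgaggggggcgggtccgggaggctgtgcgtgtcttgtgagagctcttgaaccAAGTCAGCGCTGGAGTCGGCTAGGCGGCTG
KMT5A: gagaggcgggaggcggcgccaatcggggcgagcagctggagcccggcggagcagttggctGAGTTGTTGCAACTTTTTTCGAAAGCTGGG
KDM1A: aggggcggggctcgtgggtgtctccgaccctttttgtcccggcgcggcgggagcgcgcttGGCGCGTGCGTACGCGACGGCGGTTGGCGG
EHMT1: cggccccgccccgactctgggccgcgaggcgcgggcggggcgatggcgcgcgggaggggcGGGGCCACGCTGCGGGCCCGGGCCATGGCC

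These windows lie at chr19:55339816-55339905 (plus strand) for KMT5C, chr1:155562774-155562863 (minus) for ASH1L, chr2:86441311-86441400 (plus) for KDM3A, chr12:123384072-123384161 (plus) for KMT5A, chr1:23019408-23019497 (plus) for KDM1A and chr9:137618945-137619034 (plus) for EHMT1. Their 300-base promoter windows were 64.3%, 72.7%, 64.0%, 64.0%, 66.7% and 79.3% G and C, in that order. Over the 60 annotated promoter windows of 41 protein-coding members the median was 69.3%, compared with 64.7% over 12553 windows of 8513 genes, and the median number of CG dinucleotides was 30 against 25. A C at the annotated first base followed by 4 pyrimidines stood in 1 of the 60 member windows (1.67%) and in 646 of all windows (5.15%).

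Among H4K20 methyltransferases, KMT5C, which adds further methyl groups to it, had the highest m7G ratio of all members. Its start peak was at 13.0 RPM (IP) against 1.57 RPM (input), a ratio of 8.28 (7.47 to 9.20). KMT5A, the monomethylating enzyme, had 4.08 against 0.810 RPM at its start, a ratio of 5.04 (4.35 to 5.87). The largest start peak by level belonged to KDM5C, an X-linked demethylase of trimethylated H3K4, with 268 RPM (IP) against 33.3 RPM (input), a ratio of 8.05 (7.88 to 8.24). That single peak held 91.2% of the m7G IP signal of KDM5C, and the gene's other m7G peak had a ratio of 1.46. Start peaks were also higher for ASH1L (6.72, 4.32 to 10.9, from 23 input reads), KDM3A, a demethylase of H3K9 (5.83, 4.60 to 7.46), and SETD4 (5.66, 3.04 to 11.5, from 12 input reads), whose peak covered 4 of the first 50 bases. SUV39H2, which trimethylates H3K9, had 4.81 (3.86 to 6.05), and KMT2E, an MLL family protein without known catalytic activity, had 4.62 (3.73 to 5.77).

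Not every start peak was high. KDM1A, the demethylase of H3K4 also called LSD1, was at 2.40 (2.28 to 2.52) and EZH2, the catalytic subunit of PRC2, at 2.22 (2.11 to 2.35). SETD3, an actin histidine methyltransferase, was at 1.96 (1.89 to 2.04) and KDM5A, a demethylase of H3K4 like KDM5C, at 1.96 (1.69 to 2.26), just under the 2-fold call. KMT5B, SETDB1 and EHMT1 were at 1.56, 1.45 and 1.21. Away from starts the highest m7G ratios were those of the non-coding RNA KMT2E-AS1 (3.88, 3.15 to 4.82) and of SUV39H2 (3.19, 2.59 to 3.94). The widely peaked H3K36 genes lay near 1 when all their m7G peaks were summed, at 1.02 for SETD2 (9 peaks), 0.989 for NSD2 (8 peaks) and 0.973 for NSD3 (4 peaks).

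In all, 22 of 118 member m7G peaks were higher in the IP (18.6%, against 37.6% of all m7G peaks) and 0 were lower (0.0472% of all). Peaks near starts were fewer: 15.3% of member m7G peaks lay within 500 bases of an annotated start, compared with 32.4% of peaks in all protein-coding genes. Input level differed as well. The median member m7G peak had 9.17 RPM in the input, against 4.65 RPM over the list, and the 22 higher peaks had a median input of 0.447 RPM where the other 96 had 12.3 RPM. The input is the denominator of the ratio that set the call, so part of the latter difference is built in. The part of input level in these shares was not tested.

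**Figure D2:**
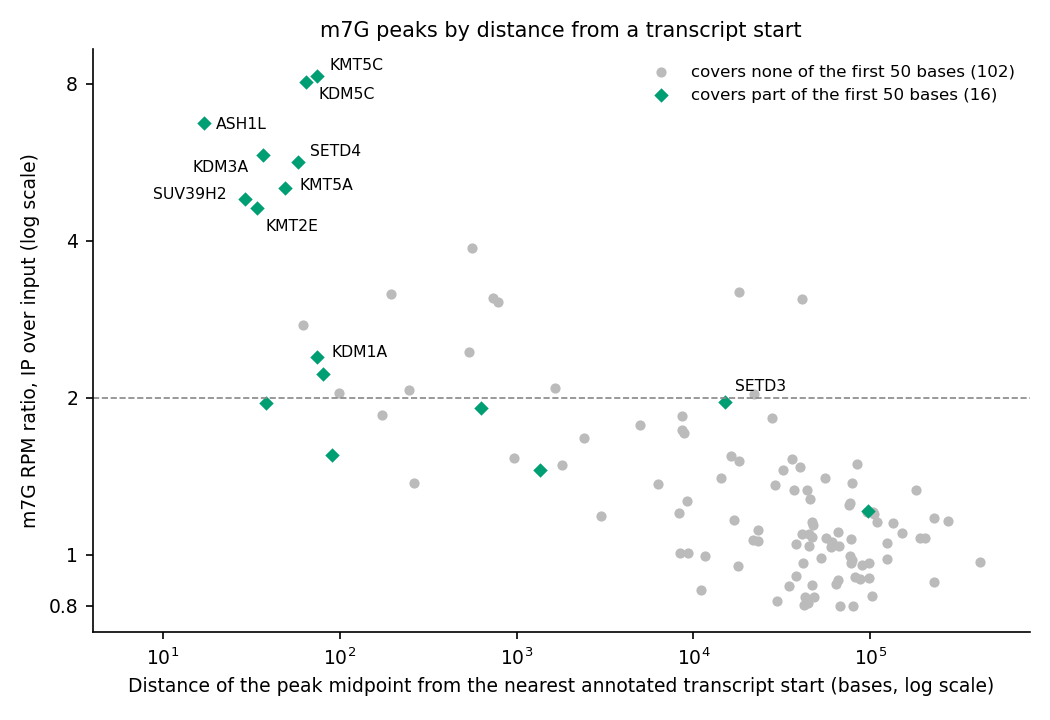
IP over input RPM ratio (log scale) of each of the 118 member m7G peaks against the distance of its midpoint from the nearest annotated transcript start in bases (log scale); diamonds cover part of the first 50 transcribed bases and the dashed line is 2-fold. All 8 peaks with ratios above 4 cover a start, and the 102 other peaks reach at most 3.88.

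The m1A ratios were high in H3K4 methyltransferase genes and low in H3K36 methyltransferase genes. Over all members 120 of 246 m1A peaks were higher (48.8%, against 44.7% of all m1A peaks) and 26 were lower (10.6%, against 10.8%), with a median ratio of 1.92 against 1.67. In the H3K4 methyltransferase group, which includes KMT2E, 59 of 80 peaks were higher (73.8%), with a median of 5.67. Among H3K36 methyltransferases 5 of 36 were higher (13.9%) and 9 were lower, with a median of 0.731. Methyltransferases as a whole had 84 of 167 peaks higher and demethylases 35 of 75, so the split ran within each class.

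Within the H3K4 group, 4 genes carried the high m1A values. SETD1B, a catalytic subunit of the COMPASS complex, had the highest member peak, in chr12:121810707-121810831, from 20 input reads against 1604 in the IP, at a ratio of 104 (67.3 to 171). Its paralogue SETD1A had a peak of 83.4 (66.2 to 107) and all 8 of its m1A peaks were higher. KMT2B, which methylates H3K4 at promoters, had 53.7 (40.9 to 71.9) at its highest peak and all 9 peaks higher. KMT2D had 43.9 (26.4 to 79.1) at its highest, and 31 of its 32 peaks were higher, with the remaining peak at 1.61. Summed over their peaks, IP and input RPM were 87.1 and 7.85 for SETD1B over 2225 bases, 368 and 55.1 for SETD1A over 2475 bases, 326 and 49.1 for KMT2B over 2075 bases, and 326 and 57.4 for KMT2D over 7569 bases. The summed ratios were 11.1, 6.68, 6.64 and 5.68. Leaving out the peak with the most IP signal gave 12.1, 5.07, 9.45 and 5.22, so none of the 4 rested on 1 peak.

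The other MLL family genes summed to the level of the input or below it. KMT2A summed to 37.5 RPM (IP) against 37.8 RPM (input), a ratio of 0.991 (0.966 to 1.02), with 1 of 8 peaks higher. KMT2C, the paralogue of KMT2D, summed to 10.4 and 22.2 RPM, a ratio of 0.469 (0.450 to 0.490), with 0 of 6 peaks higher and 3 lower. KMT2E summed to 0.602 (0.595 to 0.609). The counting intervals of the paralogues KMT2C and KMT2D did not overlap, nor did those of KMT2A and KMT2B. Such intervals are narrow at this depth, and overlap between other pairs of genes was not counted. Spread between libraries is also unknown for these differences between paralogues. SETD7, which monomethylates H3K4, had no m1A peak of its own.

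Among the H3K36 methyltransferases, ASH1L summed to 30.3 RPM (IP) against 63.4 RPM (input) over 18 peaks, a ratio of 0.479 (0.467 to 0.491). Its highest peak, at 21.5 (7.99 to 81.0), rested on 66 IP and 4 input reads. SETD2, the trimethylase of H3K36, summed to 0.561, NSD3 to 0.577 and NSD2 to 0.879. NSD1, another dimethylase of H3K36, had no m1A peak of its own. The low sum of NSD3 rested on 1 of its 2 peaks, and the other had a ratio of 2.28, while SETD2 was at 0.487, ASH1L at 0.577 and NSD2 at 1.20 without their strongest peaks. DOT1L, the H3K79 methyltransferase, summed to 165 and 43.4 RPM, a ratio of 3.82 (3.75 to 3.89), with 5 of 6 peaks higher.

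The silencing methyltransferases were mixed for m1A. SUV39H1, which trimethylates H3K9, had 2 peaks, both higher, and a summed ratio of 4.66 (4.01 to 5.45). EHMT1, which dimethylates H3K9 together with EHMT2, summed to 1.20 over 10 peaks, and its start-covering peak was at 16.7 (9.89 to 30.5) from 15 input reads. SETDB1, a trimethylase of H3K9, was at 0.660 and SUV39H2 at 0.918. EZH2 and EZH1, the alternative catalytic subunits of PRC2, were at 0.770 and 0.781. Without its strongest peak EZH2 was at 2.46. Among H4K20 enzymes KMT5C had 1 peak at 12.04 (7.06 to 22.1), and KMT5A and KMT5B summed to 0.736 and 0.680, but to 1.11 and 1.70 without their strongest peaks. Of the remaining SETD genes, SETD5 summed to 0.398 (0.393 to 0.403), SETD3 to 0.777, SETD6, a methyltransferase of RELA, to 1.45, and SETD9 to 3.97 at its 1 peak. Without their strongest peaks SETDB1 was at 1.13 and SETD6 at 0.791.

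Among demethylases, most m1A peaks of KDM6B, KDM4B, KDM2B and KDM5C were higher. KDM6B, which demethylates H3K27, had 7 of 8 peaks higher, a highest peak of 29.1 (21.2 to 41.0) and a summed ratio of 6.27 (6.03 to 6.53). KDM4B, a demethylase of H3K9 and H3K36, had 6 of 8 peaks higher and summed to 9.24 (8.92 to 9.58). KDM2B, a demethylase that recruits a variant PRC1 complex to CpG islands, had all 5 of its peaks higher and summed to 4.48. KDM5C had 10 of 13 higher and summed to 2.73. KDM1A had the highest summed m1A level of any member, 650 RPM (IP) against 202 RPM (input), a ratio of 3.22 (3.19 to 3.25). A spliced peak that covers 25 of the first 50 bases held 93.8% of that, at a ratio of 5.60 (5.54 to 5.67), and the other 3 peaks together had a ratio of 0.436. KDM8 had its only listed peak in the m1A list, at 16.3 (7.13 to 45.7) from 6 input reads. KDM7A (0.368), KDM5B (0.485) and KDM4C (0.502) had the lowest summed values. Between these and the high genes lay KDM2A (1.12), KDM3B (0.976), KDM3A (0.970), KDM4A (0.952) and KDM5A (0.844).

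High m1A ratios went with low input. The 120 higher peaks had a median of 0.281 RPM in the input and 2.06 RPM in the IP, whereas the other 126 had 2.67 RPM in the input and 2.01 RPM in the IP. The 2 groups of peaks thus differed in the input and hardly in the IP, and the part of input coverage in the ratio was not tested. The input is the denominator of the ratio that set the call, so part of this difference is built in. For m5C, the 51 higher peaks had medians of 3.58 RPM (input) and 18.1 RPM (IP), and the other 145 had 2.85 and 1.40 RPM.

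**Figure D3:**
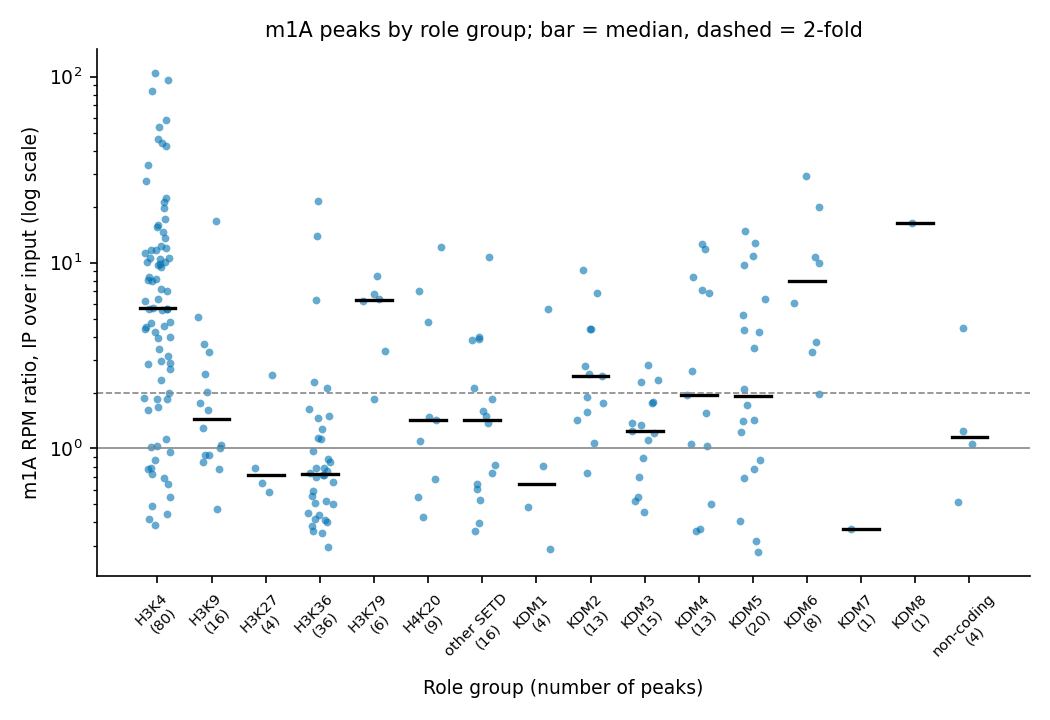
IP over input RPM ratio (log scale) of each of the 246 member m1A peaks by role group, with the number of peaks under each group; bars are medians, the solid line is 1 and the dashed line 2-fold. H3K4 methyltransferase peaks have a median of 5.67 and reach 104, H3K36 methyltransferase peaks have a median of 0.731.

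The m5C peaks were balanced between higher and lower, with high values in KMT2E, KDM5A, NSD3, KMT2A and ASH1L. Of 196 member m5C peaks, 51 were higher (26.0%, against 32.1% of all m5C peaks) and 48 were lower (24.5%, against 28.0%), with a median of 1.08 against 1.01. KMT2E summed to 904 RPM (IP) against 147 RPM (input) over 1825 bases, a ratio of 6.15 (6.07 to 6.22), the highest m5C level of the members. A spliced peak of 6 blocks in chr7:105078882-105101989 held 84.6% of it, at 11.2 (11.1 to 11.4), and the other 7 peaks had a ratio of 1.77. KMT2A summed to 3.60 (3.53 to 3.66) with 4 of 7 peaks higher, and its value without the strongest peak was 3.55. KMT2C was at 1.37, KMT2B at 1.64 and SETD1B at 1.51. Without their strongest peaks KMT2B and SETD1B were at 0.566 and 0.372, and KMT2C at 1.56. SETD1A summed to 44.6 RPM (IP) against 181 RPM (input), a ratio of 0.247 (0.240 to 0.254), and KMT2D to 0.405 (0.393 to 0.417), with 6 of its 15 peaks lower and 0 higher. SETD7 had 1 m5C peak, at 0.389.

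The H3K36 methyltransferases had 13 of 36 m5C peaks higher (36.1%) and 4 lower, where the H3K4 group had 10 of 51 higher (19.6%) and 14 lower. Of all m5C peaks 32.1% were higher and 28.0% lower, so the H3K36 share of higher peaks was near that of the list. NSD3, whose gene is at chr8:38269704-38382271, summed to 415 and 81.4 RPM, a ratio of 5.10 (5.02 to 5.19). ASH1L summed to 258 and 75.1 RPM, a ratio of 3.43 (3.37 to 3.49), with 7 of 14 peaks higher, 0 lower, and the highest member m5C peak of all, at 25.6 (23.2 to 28.3) in chr1:155335718-155335917. SETD2 summed to 2.37 and NSD2 to 0.898. Without the peak of most IP signal, the values were 2.07 for NSD3, 3.59 for ASH1L and 1.59 for SETD2. DOT1L had 0 of 6 peaks higher and 4 lower, and summed to 0.454.

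Several other methyltransferases had a strong m5C peak beside lower sums. KMT5A had a peak of 24.6 (21.5 to 28.3) in chr12:123408237-123408561 and summed to 1.96. SETD6 had 22.4 (9.77 to 63.3) from 6 input reads, a second higher peak of 11.5 (7.44 to 18.6), and a sum of 0.567 over 10 peaks. SETD5, a SET-domain protein whose enzyme activity is debated, had 19.3 (17.0 to 21.98) and summed to 1.20. EHMT1 summed to 0.581, SETDB1 to 0.628, SETD3 to 0.637, EZH2 to 1.59 and KMT5B to 1.73, the last at 0.538 without its strongest peak. EHMT1 was at 1.51 without its strongest peak, which held 96.4% of its m5C signal.

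Among demethylases, KDM5A summed to 634 RPM (IP) against 107 RPM (input), a ratio of 5.93 (5.85 to 6.02), with 4 of 6 peaks higher and a value of 3.10 without its strongest peak. KDM5B, its paralogue, summed to 2.11 (2.07 to 2.16), and KDM5C to 0.348 (0.337 to 0.360). The counting intervals of the 3 paralogues did not overlap, but such intervals are narrow at this depth. Spread between libraries is unknown for these differences as well. KDM7A, which demethylates H3K9 and H3K27, summed to 3.09, from 1 peak with 99.1% of the signal, and to 0.831 without it. KDM6A, the X-linked demethylase of H3K27, had 1 m5C peak at 2.78 (1.83 to 4.27). KDM2B was at 0.239, KDM1A at 0.334, KDM4A at 0.429, KDM6B at 0.468 and KDM4B at 0.723. KDM3A, KDM3B, KDM2A and KDM1B lay at 1.58, 1.42, 1.48 and 1.21, of which KDM3A and KDM3B were at 0.607 and 0.772 without their strongest peaks.

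The m1A and m5C sums of each gene were set side by side. Of the 34 members with a summed ratio in both lists, 10 were above 1 for m1A alone (DOT1L, EHMT1, KDM1A, KDM2B, KDM4B, KDM5C, KDM6B, KMT2D, SETD1A and SETD6) and 15 for m5C alone (ASH1L, EZH2, KDM3A, KDM3B, KDM5A, KDM5B, KDM7A, KMT2A, KMT2C, KMT2E, KMT5A, KMT5B, NSD3, SETD2 and SETD5). These were 29.4% and 44.1% of the 34, against 36.3% and 24.4% of 6542 protein-coding genes. With the median peak of each gene in place of the sum, 12 members were above 1 for m1A alone and 7 for m5C alone. By the sums, KDM2A, KMT2B, SETD1B and KMT2E-AS1 were above 1 for both, and KDM4A, NSD2, SETD3, SETDB1 and KDM7A-DT for neither. The Spearman rho was -0.558 and Pearson's r of the log2 values -0.539 over these 34 genes, compared with -0.284 and -0.253 over 6542 protein-coding genes. This is a description across genes of the same libraries, with different input pools for each list. Input level differed between the m1A and m5C pools at some genes. For KMT2D it was 57.4 RPM over 7569 bases and 114 RPM over 2200 bases, in that order. SETD1A had 55.1 RPM over 2475 bases and 181 RPM over 775, and KDM1A 202 over 1650 and 82.1 over 650. KDM5A had 120 over 975 and 107 over 1575, and ASH1L 63.4 over 1925 and 75.1 over 2675. The part of input level in the opposed sums was not tested. With the median peak ratio of each gene, rho was -0.234 for members and -0.250 for all genes. The genes above 1 for m1A alone had a median span of 56577 bases, and those above 1 for m5C alone one of 90341 bases. Over all genes the same classes had 23579 and 57020 bases, in the same order. Promoter windows had a median of 65.3% G and C in the first class and 73.2% in the second, against 67.0% and 63.2% over all genes, in the opposite order.

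Peaks with identical coordinates in the m1A and m5C lists let the same bases be compared. At chr1:155335968-155336167 in ASH1L the inputs were 2.06 and 1.84 RPM and the ratios 1.45 for m1A and 17.7 for m5C. At chr3:9445067-9447206 in SETD5 the inputs were 222 and 119 RPM and the ratios 0.360 and 1.29. At chr19:5113339-5131123 in KDM4B the ratios were 12.6 for m1A and 0.289 for m5C, but there the inputs themselves were 4.26 and 27.1 RPM, 6.37-fold apart. The ASH1L difference was in the IP, whereas at the KDM4B peak the inputs differed by more than the 2.81-fold spread, and how far that made the difference was not tested.

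All ac4C peaks of these genes were far above input, as nearly all listed ac4C peaks were. The 67 member peaks were all 2-fold or more higher (99.6% of all ac4C peaks were) and 0 were lower, with a median of 11.2 against 11.9 over the list. Divided by that list median, 22 of the 67 were higher. The highest ratios were at peaks of NSD1 and SETD7 with 0 to 5 input reads. NSD1, present in this list alone, had a peak spliced over chr5:177288862-177292014 at a ratio of 692 (291 to 2158), from 5 input reads against 178 in the IP. Its other peak was at least 661-fold higher, from 0 input reads (a floor of 3 pooled reads) against 102 in the IP. SETD7 had 5 peaks summing to 34.7 RPM (IP) against 1.07 RPM (input), and its highest, in chr4:139510651-139510825, was at 603 (230 to 2247), from 4 input reads against 124 in the IP. Neither gene had an m1A or m7G peak of its own.

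The remaining high ac4C values were those of KMT5A, at 101 (65.5 to 162), an NSD2 peak at 68.1 (21.4 to 284) from 4 input reads, EHMT1 at 57.5 (35.0 to 97.9) and KMT2A at 52.5 (39.7 to 70.1). The non-coding RNA KMT2E-AS1 had 2 peaks, at 53.0 (25.8 to 117) and 48.0 (26.8 to 90.0). The most ac4C IP signal lay in NSD2 (45.9 RPM over 5 peaks), KDM5C (45.2 RPM over 7 peaks) and EZH2 (39.6 RPM in 1 peak). Those 3 had inputs of 10.4, 5.89 and 7.22 RPM and summed ratios of 4.40, 7.67 and 5.49. The NSD2 sum rested on 1 peak at 3.50 (75.1% of its signal), and its other 4 peaks summed to 19.4. KMT2D had the lowest highest-ratio peak, at 4.60 (3.94 to 5.36). Of the demethylases, KDM2A (38.9), KDM4A (31.5) and KDM5C (27.7) had the highest peaks, and KDM3B (6.75) and KDM4B (6.01) the lowest. ASH1L had 7 ac4C peaks from 7.37 to 40.8.

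Markers of another cell type stood in the ac4C list. Of 9 mesenchymal markers, 8 had ac4C peaks (28 peaks) that summed to 905 RPM (IP) against 3.22 RPM (input), and 7 of those 8 had at least 1 peak with 3 or fewer input reads. VIM alone had 612 RPM in the IP. COL1A2 and THY1 were at 0 input reads in their peaks, and 0 of the 9 had a peak in the m1A, m5C or m7G list. Of all ac4C peaks 7.69% had 3 or fewer input reads, and of the 67 member peaks 1 did. Endothelial markers PECAM1, VWF and CDH5 and the leukocyte markers PTPRC and CD3E had no peak in any antibody list, while CD68 had peaks in all 4. The hepatocyte markers ALB, AFP and APOB had no ac4C peak. The part of these RNAs in the ac4C values of NSD1 and SETD7 was not tested.

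**Figure D4:**
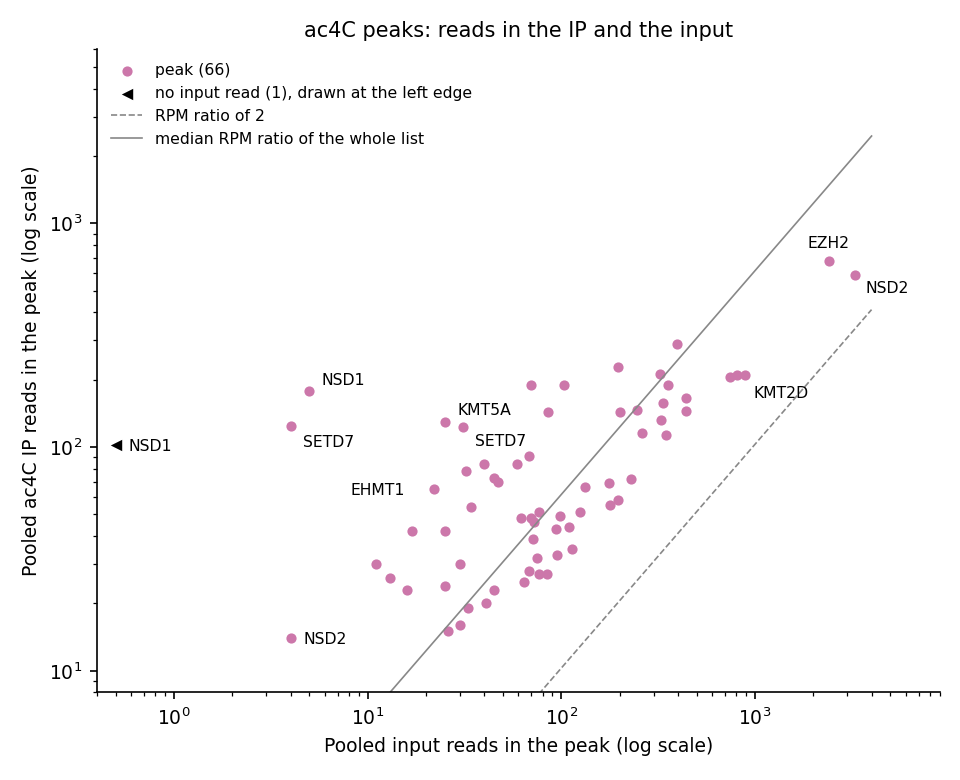
Pooled ac4C IP reads against pooled input reads of the 67 member ac4C peaks (both log scales); the solid line is the median RPM ratio of the whole list, the dashed line a ratio of 2, and the triangle is the NSD1 peak without an input read. Both NSD1 peaks and 1 SETD7 peak have 102 to 178 IP reads beside 0 to 5 input reads, and the EZH2 and NSD2 peaks at the right have the most reads of both kinds.

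The Psi peaks were shallow. There were 68 in 30 members, with a median pileup of 3 and at most 8 reads, and folds over the local background from 2.86 to 7.72 as given in the authors' deposited table. The median was 3.88, against 3.95 over the 16672 peaks of the list. KDM7A-DT, the RNA transcribed divergently from KDM7A, had the highest, at 7.72 and 6.86 and 6.84 in 3 peaks within its 2380 bases. KDM3A followed with 7.31 (pileup 7), then NSD2 with 6.35, SETD1A with 6.23, SETD1B with 6.18 and ASH1L with 6.08 (pileup 6 each). ASH1L, SETD2 and KDM5A had 5 Psi peaks each, and EHMT1, KDM5B and SETD3 had 4 each. Psi peaks were listed for 12 of 16 demethylase and 17 of 28 methyltransferase genes, where 50% of the 10298 protein-coding genes had a Psi peak. They were listed for 0 of the 2 H3K27 methyltransferases, a group too small for this count to say more. KDM3B carried Psi peaks near each end of its span, with folds of 5.22 at 194 bases after the start and 5.30 at 958 bases before the end.

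The position of member peaks was set beside that of peaks in all protein-coding genes. Within 500 bases of an annotated start lay 4.47% of m1A, 8.16% of m5C, 8.96% of ac4C and 13.2% of Psi member peaks, against 10.9%, 11.5%, 13.5% and 17.2% of all. Within 500 bases of the end of the span lay 2.85% of m1A and 3.06% of m5C member peaks, against 6.14% and 10.3%, and 0 of 118 m7G, 0 of 67 ac4C and 0 of 68 Psi peaks, against 2.95%, 5.59% and 6.78%. Counting alone allows shares of up to 3.08%, 5.36% and 5.28% for these 3 zeros, as the upper bounds of the exact intervals, and the first of them includes the share of all genes. At starts the exact intervals of the member shares also included the share of all genes for m5C (4.74% to 12.9%), ac4C (3.36% to 18.5%) and Psi (6.24% to 23.6%). These intervals take each peak as independent, although the 67 ac4C peaks lay in 29 genes and the 68 Psi peaks in 30. They are therefore too narrow to decide whether the member shares differ from those of all genes. Gene spans were not matched in this description, and a longer span leaves a smaller share of bases near its ends.

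Start-covering m1A peaks were above input and most start-covering m5C peaks below it. Part of the first 50 bases was covered by 4 of 246 m1A peaks (1.63%, against 7.69% in all genes) and 9 of 196 m5C peaks (against 6.54%). As for m7G, peaks of genes without a promoter entry could not be scored and counted as not covering. The 4 m1A peaks were all higher (69.5% of such peaks in all genes), with a median of 4.54, and of the other 242 m1A peaks 116 were (42.5% in all genes). They belonged to EHMT1 (16.7), KDM1A (5.60), KDM5C (3.49) and KDM2B (2.45). Of the 9 m5C peaks, in 8 genes, 1 was higher (14.9% in all genes), with a median of 0.547. For ac4C 1 of 67 peaks covered a start (7.42% in all genes), that of SETD7, at 47.4 (31.0 to 73.9), where 99.8% of such peaks were higher. For Psi 2 of 68 did (4.2% in all genes). Starts of KDM1A and KDM5C thus had both m1A and m7G peaks above 2.

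Overlap between lists was uneven. At least 1 base was shared with a peak of another list in the same gene by 54.1% of m1A, 62.8% of m5C, 83.1% of m7G, 32.8% of ac4C and 41.2% of Psi member peaks, compared with 56.2%, 61.1%, 76.4%, 44.5% and 43.7% over all protein-coding genes. Among genes in both lists, 77 of 114 m7G peaks overlapped an m1A peak (67.5%) and 77 of 232 m1A peaks an m7G peak (33.2%). For m7G and m5C the shares were 69.7% of m7G and 36.6% of m5C peaks. The m7G share exceeded that of all genes for m5C (53.7%) but not for m1A (69.7%). Of ac4C member peaks 25.4% overlapped an m1A and 10.2% an m7G peak, against 45.1% and 32.2% in all genes.

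The 3 non-coding genes carried low levels. KMT2E-AS1 lies on the opposite strand next to the start of KMT2E, without overlap of their spans. It had peaks in all 4 antibody lists, with summed ratios of 4.47 for m1A, 1.67 for m5C and 3.65 for m7G. These ratios all came from inputs under 1 RPM. KDM7A-DT had summed ratios of 0.949 for m1A, 0.520 for m5C and 2.76 for m7G. KDM4A-AS1 had 1 m5C peak at 1.15. By their spans, KDM7A-DT does not overlap KDM7A either, whereas KDM4A-AS1 overlaps KDM4A. No source used here says whether reads of overlapping transcripts were kept apart by strand, although the kit is stranded per the labels.

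Partners of these enzymes were described from lists drawn up with earlier results of these data known. Of 13 COMPASS and MLL partners, 12 had m1A peaks, of which 37 of 60 were higher (44.7% of all m1A peaks were) with a median of 3.53, and 13 had m5C peaks, with 8 of 37 higher (32.1% of all m5C peaks were), 12 lower and a median of 0.705. HCFC1, a subunit shared by COMPASS complexes, summed to 12.2 for m1A and 0.300 for m5C, and CXXC1, which brings SETD1A and SETD1B to CpG islands, to 5.50 and 0.158. PSIP1, which tethers KMT2A to chromatin, summed to 0.556 and 4.16. The core subunit ASH2L lay at 2.83 and 0.244 and RBBP5 at 0.971 and 0.801. Of 9 PRC2 partners, 8 had m1A peaks (15 of 34 higher) and 8 had m5C peaks (10 of 30 higher, 8 lower), to be read against the same 44.7% and 32.1%. SUZ12, the scaffold of PRC2, was at 0.447 for m1A and 2.17 for m5C, EED at 0.697 and 0.941, and RBBP7 at 7.79 and 0.305.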

How the data were processed

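Total RNA of HepAD38 cells was sequenced in 27 libraries, made with a stranded mRNA kit that adds unique molecular identifiers, per the labels' protocols. HISAT2, StringTie, DESeq and hg38 are named, without roles, in the submitters' processing notes, and no source used here names the caller of the antibody peaks. The deposited antibody lists give 1 IP and 1 input value per peak in RPM, pooled over libraries, with the authors' log2 enrichment and adjusted p-value. The Psi list gives a pileup signal, a fold over local background and −log10 p-values and q-values, per the file headers. It was made with MACS 2.2.6 from 3 libraries together without a control, with 2218798 tags (20.3% of 10921552) kept after filtering, at a q limit of 0.05.

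Genes named alone for a peak were used, and Psi peaks were placed by summit in RefSeq spans (GRCh38.p14). RPM values rose in whole reads (100% within 0.1 read), which gave the pooled depths: for IP and input, 280714967 and 364905848 reads (m1A), 118320068 and 241116540 (m5C), 263344365 and 259416505 (m7G), and 17135274 and 333220800 (ac4C). The ratio of IP to input RPM was computed from the deposited values, with exact 95% binomial intervals for counting error only and a floor of 3 reads. Unique molecular identifiers may or may not have been collapsed, so reads may not be independent molecules. A call was a ratio of 2 or more, or 0.5 or less. The labels name 3 libraries per group without saying whether they are separate cultures, and a count model across libraries was planned only for values per library, so no p-value is given for any comparison. The exact binomial call alone used p-values, on pooled reads.

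Promoter windows came from RefSeq, with no promoter entry for DOT1L, SETD1B and NSD3, where the gene span gave the start. Members and lists (H3K4, H3K9 and other role groups, partners of COMPASS and PRC2, other lysine enzymes, arginine methyltransferases, readers and cell type markers) were chosen with earlier results of these data known. Genes were named by rule: per antibody list the 4 with the highest and 2 with the lowest top ratio (at least 20 IP reads) and the 3 with most IP RPM, the 4 with the highest Psi fold, the member of each role group with most peaks, and those in 5 lists or in 1 antibody list. Values of other members were given as well, though not for every list, after they were seen. Alternatives were other thresholds, windows, list-median scaling, stricter peak p-values, an exact binomial call, and sums without the strongest peak. The scripts (Python 3.11.15, NumPy 2.4.6, pandas 2.3.3, SciPy 1.17.1, Matplotlib 3.10.9) were tested on simulated data.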

Additional observations from a re-analysis of the deposited data

Results flagged for a closer look

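Peaks that the lists name for several genes were left out of all counts above, and 4 of them with a member's name lay above input. SETDB2, an H3K9 methyltransferase gene without a peak of its own, shares its locus with the readthrough gene SETDB2-PHF11. The m1A peak named for SETDB2, SETDB2-PHF11 and PHF11 had a ratio of 1.68 (exact 95% counting interval 1.38 to 2.05, from 242 IP and 187 input reads). An m7G peak named for SETDB2 and SETDB2-PHF11 had a ratio of 3.21 (2.35 to 4.44), and the 2 other m7G peaks of these names had 0.996 and 0.923. An m5C peak of the same 2 names was below input, at 0.760 (0.683 to 0.843). An ac4C peak of these names had a ratio of 21.9 (15.99 to 30.2). The ac4C peak named for ASH1L and MIR555, a miRNA gene inside ASH1L, had a ratio of 11.1 (6.72 to 18.03). Which of the named genes the reads came from cannot be told apart.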

How the results depend on the processing

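Of the 76 recomputed summary values, 66 stayed within 1.5 times the reported count or within its counting interval, and 10 moved. Of the recomputed values of single genes, 39 stayed as reported, 104 moved and 12 turned to the other side of 1. With adjusted p-values at or below the list median, 16 of the 29 genes had an ac4C peak, and with −log10 q-values at or above the median 14 of 30 had a Psi peak. A cut at the list's own median drops peaks of any genes by construction. No share over all genes is given beside these 2 counts, so they do not single out the members. At a ratio of 4, 26 m5C peaks (17.7% of all m5C peaks) and 8 m7G peaks (17.5%) were higher, in place of 51 and 22. For m7G, a ratio of 1.5 gave 37 (46.1% of all) and an exact binomial call with Benjamini-Hochberg adjustment, which tests pooled reads and not conditions, 77 (66.2%). Divided by the list's median ratio, 22 of 67 ac4C peaks were higher (28.1% of all). The share of m1A peaks near the 3′ end was 0.407% within 200 bases and 7.72% within 1000, and that of ac4C peaks 5.97% within 1000. With ac4C ratios divided by the list median, the highest peaks fell below 1 for EZH2 (0.46), KDM3B (0.566), KDM4B (0.503), KDM5A (0.969), KDM7A (0.869), KMT2C (0.867), KMT2D (0.386), SETD2 (0.94), SETD3 (0.636) and SETD6 (0.653). Of the 31 sums at least 2-fold from input that could be recomputed without the strongest peak, 19 stayed 2-fold or more from 1 on the same side. The sums of KDM1A for m1A (0.436) and KDM7A for m5C (0.831) fell below 1. Sums nearer to 1 also crossed it, among them those given with the results. That scaling of single ac4C peaks, the sums without a peak and the median-peak correlation (-0.234) were chosen after seeing the data. No paired analysis was possible because the values are pooled over libraries, and for the same reason no library could be left out. Depth limits single ratios most where a peak has few input reads, as the 0 to 5 of both NSD1 ac4C peaks.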

Other observations

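Other chromatin genes were described in the same way, beside all peaks, of which 44.7% (m1A), 32.1% (m5C) and 37.6% (m7G) were higher. Of 8 arginine methyltransferase genes, which act on histones and RNA-binding proteins, 7 had m7G peaks, and 10 of their 11 m7G peaks were higher with a median ratio of 5.004. PRMT9 had 8.38 (6.15 to 11.7) and PRMT1 summed to 7.58 (7.37 to 7.79). For m1A, 18 of 24 peaks were higher, with a median of 3.49. Of 16 other lysine methyltransferase and demethylase genes, 10 had m1A peaks (14 of 35 higher) and 12 had m5C peaks (10 of 32 higher, 7 lower). JMJD1C, a relative of KDM3A, summed to 11.7 (11.6 to 11.9) for m5C, and RIOX1, a Jumonji-domain oxygenase, had 1 m1A peak at 42.9 (26.6 to 74.2).

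Of 18 genes of histone methylation readers, 14 had m1A peaks (14 of 43 higher, 7 lower, median 0.827) and 16 had m5C peaks (18 of 57 higher, 14 lower, median 1.02). CBX3, which binds methylated H3K9, had 1 m5C peak at 824 RPM (IP) against 102 RPM (input), a ratio of 8.05 (7.94 to 8.16). The PRC2 partner AEBP2 summed to 25.6 (24.6 to 26.6) for m1A. These lists were described by counts, and no difference between them was tested.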
